A study of Mus musculus with 4 samples.

Results

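Cxcl1, Cxcl2, Cxcl5 and Ccl20 encode secreted chemokines that attract white blood cells to mucosal surfaces. They were chosen by name from the authors' deposited table of pyloric stomach RNA-seq counts, which lists 2701 genes, and all 4 have a row in it. The C57BL/6 mice of both genotypes carried floxed Lats1 and Lats2 and were collected 8 weeks after tamoxifen. WT denotes Lats1fl/fl;Lats2fl/fl mice without Cre. Lats1/2iΔLgr5 denotes Lats1fl/fl;Lats2fl/fl;Lgr5-CreER mice, in which Cre expressed from Lgr5 acts in stem cells at the gland base and the deletion passes to their progeny. Each genotype has 2 libraries; the labels do not say whether these came from separate mice or give the age of the mice, and p-values measure only the spread between these libraries. The Lgr5-CreER allele is carried by the Lats1/2iΔLgr5 mice alone, so effects of the allele and of the deletion cannot be told apart.

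Chemokines are small secreted proteins that guide migrating cells along a gradient. CXCL1, CXCL2 and CXCL5 belong to the branch of CXC chemokines with a glutamate-leucine-arginine (ELR) motif, which binds the receptor CXCR2 and draws neutrophils. CCL20 binds CCR6 and draws B cells, dendritic cells and T cells that make interleukin-17 to mucosal epithelium. Epithelial cells, fibroblasts and myeloid cells can all make these proteins, and the genes are known targets of NF-κB downstream of interleukin-1, TNF and interleukin-17.

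RNA was taken from 10 µm sections labelled pyloric epithelium. Values below are normalized counts, that is, read counts divided by the authors' size factors, which were recovered from the deposited base means. The listed genes hold between 13413629 and 17689207 counts per library. Of 12 markers of gastric pyloric epithelium, 7 were listed, among them Gkn1, Gkn2, Tff1, Cdh1 and Pdx1, with at least 1140 normalized counts in every library. All 7 fell in the authors' table, and their summed level was 4628000 and 4956000 in WT and 2546000 and 2132000 in Lats1/2iΔLgr5. Gkn1 and Gkn2 held most of each sum, with 1758000 and 2238000 in WT 1. Cdh1 and Krt8 fell by 0.52 and 0.60 on the log2 scale, against a median of -0.50 over all listed genes. Beside the 7 of 12 and the next marker count, 20.6% of an inferred 13141 genes tested were listed. Of 2701 listed genes 1543 were lower. With TMM scaling Cdh1, Krt8, Muc5ac and Pdx1 did not pass (edgeR adjusted p from 0.0884 to 0.293). The fibroblast genes Col1a2 and Col3a1 were also read in every library, from 2213 to 7445 normalized counts, so the sections held more than epithelium. Of 12 fibroblast and endothelial markers 4 were listed, 3 lower and 1 higher, with summed levels of 9709 and 12900 in WT and of 7234 and 6351 in Lats1/2iΔLgr5. In such bulk RNA, fewer cells of a type and less RNA per cell cannot be told apart. Lats1 itself stood at 2152 in WT 1, 1974 in WT 2, 942.5 in Lats1/2iΔLgr5 1 and 1129 in Lats1/2iΔLgr5 2, in the direction of the labels; Lats2 has no row and was not analysed here. Libraries of a group differed by more than 2-fold in 6.33% of listed genes in WT and in 3.33% in Lats1/2iΔLgr5.

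All 4 chemokines rose in the Lats1/2iΔLgr5 pylorus at the authors' threshold, an adjusted p of at most 0.05 in the authors' deposited DESeq2 table. That threshold was passed by 20.6% of an inferred 13141 genes tested, and by 8.81% with a rise. Only genes that passed have a row, so passing was fixed when the members were taken from this table. With all 4 libraries Cxcl5 had the largest fold change, from 4.57 ± 2.90 to 152.7 ± 40.2 normalized counts (SD, n = 2), and was high in both Lats1/2iΔLgr5 libraries. Cxcl2 had the larger log2 fold change without Lats1/2iΔLgr5 replicate 1 (5.18 against 4.70) and without WT replicate 2 (6.19 against 5.85). Cxcl1 and Cxcl2 were far higher in Lats1/2iΔLgr5 2 than in Lats1/2iΔLgr5 1, and Ccl20 was higher in Lats1/2iΔLgr5 1. Each member was higher in both Lats1/2iΔLgr5 libraries than in either WT library. Such a separation held, in one direction or the other, for 99.9% of listed genes, and with the rise for 42.9%, so it does not set the chemokines apart from the rest of the table.

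Cxcl5 (ENSMUSG00000029371) lies on chromosome 5 at 90759360 to 90761624 (GRCm38), on the plus strand, with 4 exons in GENCODE M21. In mice its product is made mainly by epithelial and stromal cells. It was at 2.52 normalized counts in WT 1, 6.62 in WT 2, 181.1 in Lats1/2iΔLgr5 1 and 124.3 in Lats1/2iΔLgr5 2. The WT values rest on 2 and 6 reads, against 200 and 159 reads in the Lats1/2iΔLgr5 libraries. The lowest Lats1/2iΔLgr5 value was 18.8 times the highest WT value, the widest gap among the 4 members. The log2 fold change was 5.0 ± 0.60 (SE; edgeR quasi-likelihood test, adjusted p = 0.0118 over the listed genes). Without Lats1/2iΔLgr5 replicate 2 it was 5.24 (edgeR adjusted p = 0.0702). In the authors' deposited table it is 3.26 with an adjusted p of 5.18e-11, the rank of that p being 41 of 2701. The deposited fold changes are shrunken toward 0 and are below the edgeR values for all 4 members. With the reads of each group summed, the ratio was 32.0, with a 95% interval of 16.1 to 74.7 that covers counting error only.

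Cxcl1 (ENSMUSG00000029380; chromosome 5, 90891241 to 90893115, plus strand, 4 exons) encodes the chemokine also called KC, a main ligand of CXCR2. WT 1 had 8.83 normalized counts, WT 2 24.3, Lats1/2iΔLgr5 1 49.8 and Lats1/2iΔLgr5 2 207.9. The groups do not overlap, but Lats1/2iΔLgr5 1 was only 2.05 times WT 2, whereas Lats1/2iΔLgr5 2 was 12.6 times the WT mean. Group means were 16.6 ± 10.9 and 128.8 ± 112 (SD, n = 2). The log2 fold change was 2.94 ± 0.88 (SE; edgeR adjusted p = 0.0221). The authors' deposited table gives 1.54 and an adjusted p of 0.0106. Without Lats1/2iΔLgr5 replicate 2 the log2 fold change was 1.57 (edgeR adjusted p = 0.125).

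Cxcl2 (ENSMUSG00000058427; chromosome 5, 90903871 to 90905938, plus strand, 4 exons) encodes MIP-2, another CXCR2 ligand, typical of activated macrophages and neutrophils but also made by epithelium. Over all libraries it had the fewest reads: 1 in WT 1, 7 in WT 2, 32 in Lats1/2iΔLgr5 1 and 220 in Lats1/2iΔLgr5 2. These correspond to 1.26, 7.72, 29.0 and 171.9 normalized counts. The order of the libraries is that of Cxcl1, with Lats1/2iΔLgr5 2 highest and WT 1 lowest, but the reads are too few to order the WT libraries. The log2 fold change was 4.41 ± 1.19 (SE; edgeR adjusted p = 0.0185), and the ratio of summed reads was 22.5, with a 95% counting interval of 11.2 to 52.6. The authors' deposited table gives 1.65 and an adjusted p of 0.00534. Without Lats1/2iΔLgr5 replicate 2 the log2 fold change was 2.61 (edgeR adjusted p = 0.0945), and without WT replicate 2 it was 6.19, a fold set against the single read of WT 1.

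Ccl20 (ENSMUSG00000026166; chromosome 1, 83116766 to 83119167, plus strand, 4 exons) was the one member with more than 100 reads in every library. WT 1 had 142.6 normalized counts, WT 2 134.6, Lats1/2iΔLgr5 1 681.8 and Lats1/2iΔLgr5 2 253.2. The WT libraries agreed within counting error, with a ratio of 0.944 (95% interval 0.725 to 1.23), and both Lats1/2iΔLgr5 libraries were above them. Group means were 138.6 ± 5.69 and 467.5 ± 303 (SD, n = 2). The log2 fold change was 1.75 ± 0.49 (SE; edgeR adjusted p = 0.0199). The authors' deposited table gives 1.36 and an adjusted p of 0.00609. Without Lats1/2iΔLgr5 replicate 1 the log2 fold change was 0.87 (edgeR adjusted p = 0.0881), and without Lats1/2iΔLgr5 replicate 2 it was 2.30 (edgeR adjusted p = 0.0702).

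**Figure D1:**
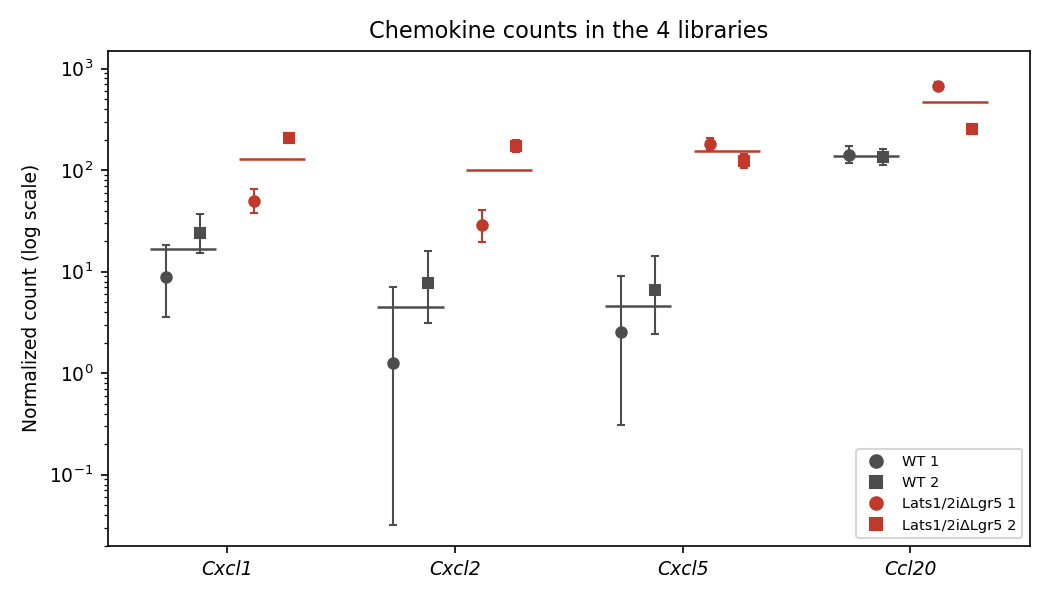
Normalized counts (log scale) of the 4 chemokine genes in WT (grey) and Lats1/2iΔLgr5 (red) libraries; circles are replicate 1, squares replicate 2, vertical bars exact 95% Poisson intervals for counting error, and horizontal lines group means. Cxcl5 is high in both Lats1/2iΔLgr5 libraries (181.1 and 124.3), Cxcl1 and Cxcl2 are highest in Lats1/2iΔLgr5 2, and Ccl20 in Lats1/2iΔLgr5 1.

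With 2 libraries against 2, an exact two-sided permutation test over libraries cannot give a p below 0.333, and it gave 0.333 for each member. The edgeR p-values above borrow the spread of the other listed genes and are adjusted over genes that the authors had already picked for a small p; 99.9% of these genes passed, 42.8% with a rise. When the edgeR adjustment covered all 13141 inferred tests, with every unlisted gene set to 1, no member passed, with edgeR adjusted p = 0.0572 for Cxcl5, 0.0900 for Cxcl2, 0.0969 for Ccl20 and 0.108 for Cxcl1. Of the inferred tests 0.0304%, or 4 genes, did pass at that setting. Without Lats1/2iΔLgr5 replicate 1 or 2, 55.6% or 0.185% of listed genes passed over the listed genes. The word rose therefore rests on the authors' own DESeq2 test.

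**Figure D2:**
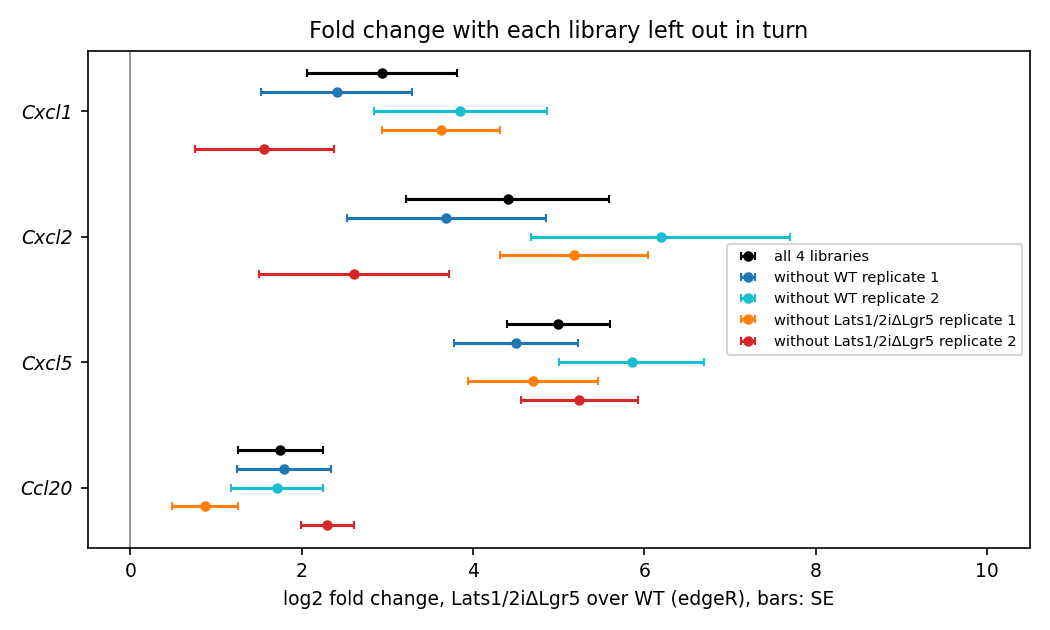
Log2 fold change of Lats1/2iΔLgr5 over WT from edgeR for each chemokine gene, with all 4 libraries and with each left out in turn; bars are standard errors. The values stay above 0 throughout, which groups without overlap fix in advance. They run from 4.50 to 5.85 for Cxcl5, 1.57 to 3.85 for Cxcl1, 2.61 to 6.19 for Cxcl2 and 0.87 to 2.30 for Ccl20.

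The Lats1/2iΔLgr5 libraries differed by more than counting error for every member, and the direction was not the same for all members. Summed over the table, these libraries also differed by more than counting error (chi-square of 108 per degree of freedom). The most counted genes weigh most in that sum, so it does not show the same for genes as scarce as the CXC members. Cxcl2 was 5.94 times (95% interval 4.08 to 8.89) and Cxcl1 4.18 times (3.11 to 5.69) as high in Lats1/2iΔLgr5 2 as in Lats1/2iΔLgr5 1. On a log2(normalized count + 1) scale, gaps at least as large were seen in 0.407% and 0.666% of listed genes between the same libraries. Ccl20 was 2.69 times (2.36 to 3.08) as high in Lats1/2iΔLgr5 1, a gap reached by 1.56% of listed genes. Cxcl5 was 1.46 times (1.18 to 1.81) as high there, a gap reached by 12.8% of listed genes. The listed genes were picked for a small p, which disfavours large gaps within a group, and few had a lower base mean than the CXC members. These shares therefore do not show that the gaps are unusual among all genes tested. In WT, Cxcl1 was 2.75 times (1.13 to 7.61) as high in WT 2 as in WT 1, while for Cxcl2 and Cxcl5 the reads are too few to show a difference, their intervals running from 0.786 to 275.7 and from 0.469 to 26.6.

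The makeup of the neutrophil-attracting group differed between libraries as well. Cxcl1 held most of the reads of the 3 CXC genes in WT, 7 of 10 in WT 1 and 22 of 35 in WT 2, or 70.0% (Clopper-Pearson 95% interval 34.8 to 93.3) and 62.9% (44.9 to 78.5). In Lats1/2iΔLgr5 1 Cxcl5 held 69.7% (64.0 to 75.0) of 287 reads and Cxcl1 19.2% (14.8 to 24.2). In Lats1/2iΔLgr5 2 Cxcl1 held 41.2% (37.4 to 45.2) of 645 reads, Cxcl2 34.1% (30.4 to 37.9) and Cxcl5 24.7% (21.4 to 28.2). The share of Cxcl5 thus stood above its WT point values of 20.0% and 17.1% in both Lats1/2iΔLgr5 libraries, but its intervals overlap those of WT in Lats1/2iΔLgr5 2.

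**Figure D3:**
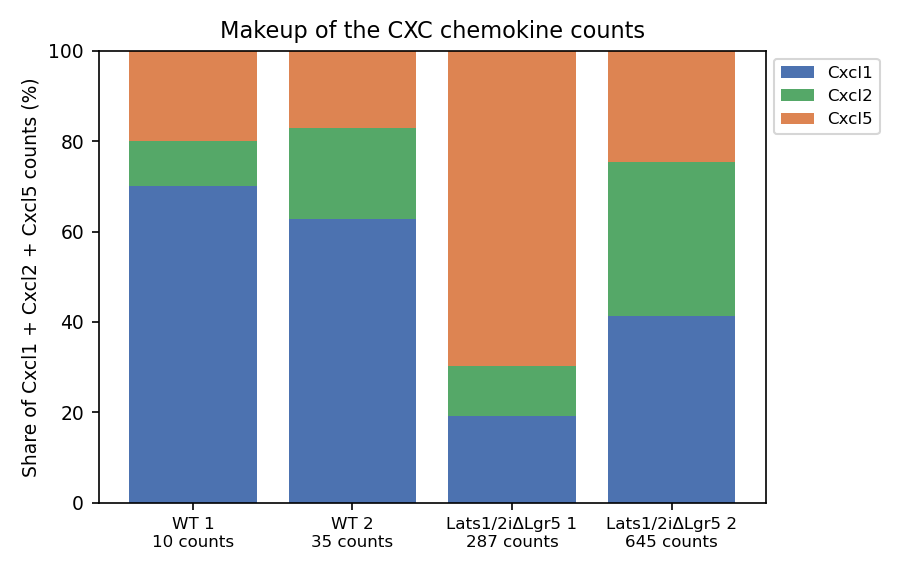
Share (%) of the summed Cxcl1, Cxcl2 and Cxcl5 reads that each gene holds in each library, with the summed reads under each bar. Cxcl1 leads in both WT libraries (70.0% and 62.9%), Cxcl5 in Lats1/2iΔLgr5 1 (69.7%) and Cxcl1 again in Lats1/2iΔLgr5 2 (41.2%).

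Compared per kilobase of exon, Ccl20 was the most abundant of the 4 transcripts in every library. Its mean level was 97.5 normalized counts per kb in WT, against 8.83 for Cxcl1, 2.45 for Cxcl5 and 2.17 for Cxcl2. Cxcl2 and Cxcl5 do not differ beyond their spread in WT, with 0.610 and 3.73 normalized counts per kb for Cxcl2 and 1.36 and 3.55 for Cxcl5. In Lats1/2iΔLgr5 the mean levels were 329.0 normalized counts per kb for Ccl20, 82.0 for Cxcl5, 68.7 for Cxcl1 and 48.6 for Cxcl2. The 3 CXC genes overlapped there, Cxcl1 spanning 26.6 to 110.9 and Cxcl5 66.7 to 97.2 normalized counts per kb. Against the whole table all 3 were scarce: 3.48% of listed genes had a lower base mean than Cxcl5, 2.85% than Cxcl1 and 1.30% than Cxcl2, and 20.0% than Ccl20.

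The 3 CXC genes lie in one cluster on chromosome 5, all on the plus strand. Cxcl1 starts 131.9 kb and Cxcl2 144.5 kb downstream of Cxcl5, so Cxcl1 and Cxcl2 are 12.6 kb apart. Between Cxcl5 and Cxcl1 lie Ppbp, Pf4, Cxcl3 and Cxcl15, other CXC chemokine genes, none of which has a row in the table. Against 20.6% of inferred tests that passed, 4 of 21 other protein-coding genes (tested or not) within 1 Mb of the Cxcl5 start were listed. Besides the members Cxcl1 and Cxcl2, chosen beforehand, these were Areg, which encodes the EGF receptor ligand amphiregulin, and Parm1, and both fell. Areg, 248.4 kb downstream of Cxcl1, had 4272 normalized counts in WT 1, 7575 in WT 2, 2266 in Lats1/2iΔLgr5 1 and 2238 in Lats1/2iΔLgr5 2. Its log2 fold change was -1.40 (authors' deposited adjusted p of 9.04e-05). Between groups Areg was thus opposite to its chemokine neighbours. Within WT it was not, as Areg and Cxcl1 were both higher in WT 2. Of 2701 listed genes 1543 were lower, so a fall is the more common direction. Around Ccl20, none of 23 protein-coding genes within 1 Mb was listed.

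**Figure D4:**
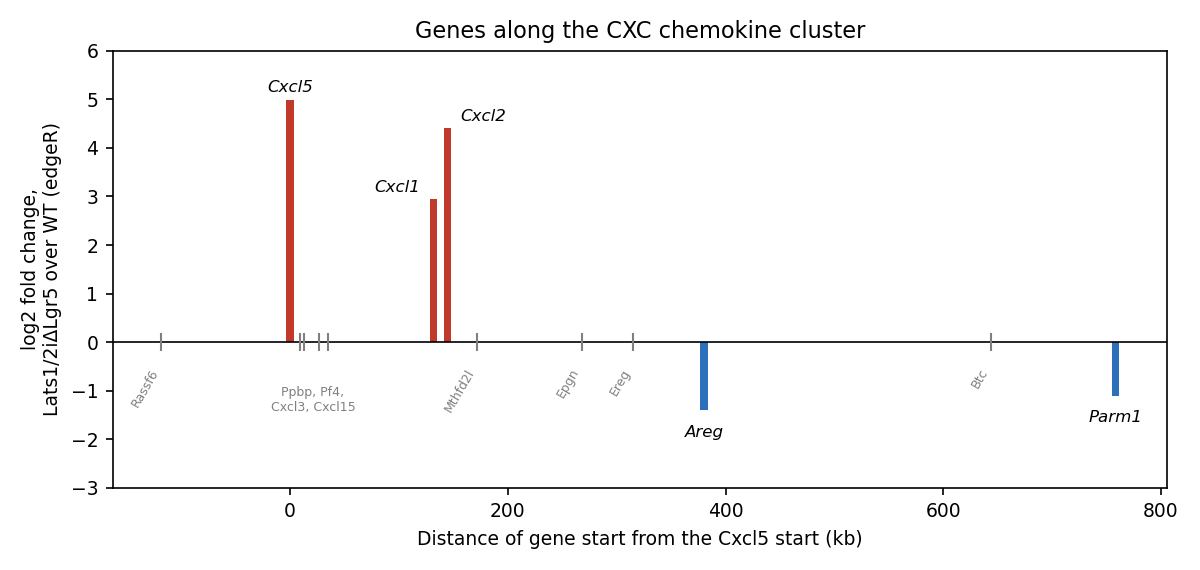
Log2 fold change of listed genes (bars, red higher and blue lower in Lats1/2iΔLgr5) against the distance of their start from that of Cxcl5 (kb); grey ticks are protein-coding genes with no row in the table and therefore no value. Cxcl5, Cxcl1 and Cxcl2 are higher (5.0, 2.94 and 4.41), while Areg and Parm1 are lower (-1.40 and -1.10).

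Because Cxcl1 and Cxcl2 varied together across the libraries, the bases just before their start sites are shown beside those of Ccl20. The sequences are from RefSeq (GRCm38.p6), which matched 3 of the 4 members. Each is the 150 bases before the RefSeq start on the plus strand. Matches to the NF-κB consensus and to the TEAD motif GGAATG, on either strand, are in capitals. The RefSeq starts are 90891245 for Cxcl1, 90903899 for Cxcl2 and 83116766 for Ccl20. For Cxcl1 and Cxcl2 they lie downstream of the gene starts printed above, so the last bases shown fall inside those genes as printed.
Cxcl1, chr5:90891095-90891244: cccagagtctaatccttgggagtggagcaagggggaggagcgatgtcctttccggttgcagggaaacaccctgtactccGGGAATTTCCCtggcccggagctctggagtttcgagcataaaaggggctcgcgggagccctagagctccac
Cxcl2, chr5:90903749-90903898: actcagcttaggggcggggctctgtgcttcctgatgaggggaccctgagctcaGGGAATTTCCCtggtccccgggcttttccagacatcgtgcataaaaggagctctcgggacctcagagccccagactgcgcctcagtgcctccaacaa
Ccl20, chr1:83116616-83116765: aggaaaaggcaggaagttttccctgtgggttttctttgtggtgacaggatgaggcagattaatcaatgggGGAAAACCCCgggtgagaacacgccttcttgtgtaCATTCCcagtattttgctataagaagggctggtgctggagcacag

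The longest run shared by the 250 bases before Cxcl1 and those before Cxcl2 was 14 bases, gggaatttccctgg. The run starts 71 bases before the RefSeq start of Cxcl1 and 97 bases before that of Cxcl2, distances that depend on which annotated start is used. The first 11 bases of the run, GGGAATTTCCC, hold overlapping matches to the NF-κB consensus on both strands. In 300-base windows, which reach from 250 bases before to 50 after a start, those 11 bases occur on either strand in 14 of 32851 mouse promoters (0.0426%). Cxcl1, Cxcl2 and Cxcl3 are among the 14, of which only Cxcl1 and Cxcl2 are listed in the table. A match to the NF-κB consensus itself occurs in 8.46% of promoters, and Ccl20 has 1, GGAAAACCCC, starting 80 bases before its start. GGAATG, bound by the TEAD partners of YAP and TAZ, occurs in 14.7% of promoters. Ccl20 has 1 match, read on the minus strand as CATTCC on the printed strand 45 bases before its start, and the windows of Cxcl1 and Cxcl2 have none. The AP-1 motif TGANTCA, present in 7.81% of promoters, is in none of the 3 windows. These matches describe letters in a window and show no binding.

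Some reads of the members cannot be assigned by sequence alone. Cxcl2 and Cxcl3 transcripts share an exact run of 157 bases, longer than the 75-base reads, so a read within that stretch matches both genes, and the Cxcl2 count is uncertain to that extent. Cxcl1 shares at most 23 bases with Cxcl2 or Cxcl3, and Cxcl5 at most 18 with any of them. Cxcl5 shares runs of 77 to 89 bases with transcripts of 5 unrelated genes, on either strand, so its count is uncertain to that extent too. Among these 5, Ilf2 shares 79 bases on the same strand. It is listed and rose, from a mean of 676.3 normalized counts in WT to 1275 in Lats1/2iΔLgr5. No annotated gene overlaps any of the 4 members.

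Of 6 ELR CXC chemokine genes in a list that includes the members, 3 were listed. These are the members themselves, so the list adds no other gene to them. Of 11 other CXC, XC and CX3C chemokine genes, 1 rose and 1 fell. Cxcl17, a mucosal chemokine gene, rose from 706.7 and 490.8 normalized counts in WT to 1333 and 1334 in Lats1/2iΔLgr5, a log2 fold change of 1.16. Cxcl9, induced by interferon-gamma, fell by 3.10 on the log2 scale, but its values were 39.1 in WT 1, 451.1 in WT 2 and 38.0 and 19.5 in Lats1/2iΔLgr5, and without WT replicate 2 the log2 fold change was -0.45. Of 19 other CC chemokine genes, Ccl6, Ccl9 and Ccl11 rose, with log2 fold changes of 1.63, 1.48 and 2.00. Beside these counts, and those of the lists below, 20.6% of all inferred tests passed, 8.81% with a rise. The lists count every annotated gene, tested or not, so the shares compare only roughly. Ccl9 had 113.6 and 81.6 normalized counts in WT, against 145.8 and 399.4 in Lats1/2iΔLgr5, with a log2 fold change of 0.58 without Lats1/2iΔLgr5 replicate 2. The eosinophil attractant gene Ccl11 had 152.7 and 46.3 normalized counts in WT, against 158.4 and 635.4 in Lats1/2iΔLgr5, so its rise rests on Lats1/2iΔLgr5 2 (log2 fold change 0.68 without it).

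The receptors of the members, Cxcr2 and Ccr6, have no row in the table. Of 7 receptor and decoy genes only Ackr1 was listed, the atypical receptor that carries CXC and CC chemokines across venules. Ackr1 had 10.1 and 2.21 normalized counts in WT, against 15.4 and 135.2 in Lats1/2iΔLgr5 1 and 2. Selp, which encodes the P-selectin on which neutrophils roll, was at 10.1 and 4.41 in WT and at 33.5 and 261.0 in Lats1/2iΔLgr5 1 and 2. Both endothelial genes were thus highest in Lats1/2iΔLgr5 2, the library in which Cxcl1 and Cxcl2 were highest. The share of all listed genes that were highest there was not counted. Without Lats1/2iΔLgr5 replicate 2 the log2 fold change was 1.34 for Ackr1 and 2.21 for Selp, against 3.63 and 4.35 with all libraries. Kdr, also endothelial, fell from 461.9 and 698.2 in WT to 334.1 and 338.4 in Lats1/2iΔLgr5 1 and 2. With TMM scaling Kdr did not pass (edgeR adjusted p = 0.184). Of the 4 listed fibroblast and endothelial markers, Selp alone rose. Of 18 neutrophil, 12 macrophage and monocyte and 10 T cell, B cell and innate lymphoid markers, none was listed, S100a8, S100a9 and Ly6g included, so no value for these cells stands beside the chemokines. The part of other cell types in the results was not tested.

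Among genes that act upstream, none of 17 cytokine genes was listed, interleukin-1, interleukin-17 and TNF included. Of 27 receptors and adaptors of interleukin-1, interleukin-17, TNF and Toll-like receptor signalling, 2 rose and 4 fell, with a median log2 fold change of -0.75 over these 6. This count is near the 20.6% of all inferred tests that passed. Il17re, an epithelial receptor chain for interleukin-17C, rose from 241.0 and 259.2 normalized counts in WT to 437.3 and 640.9 in Lats1/2iΔLgr5, and Cd14, the lipopolysaccharide co-receptor, from 249.9 and 219.5 to 570.4 and 563.5. Il17rc, Tnfrsf1b, Tlr4 and Ly96 fell, with log2 fold changes from -0.97 to -0.70, of which only Tnfrsf1b passed with TMM scaling (edgeR adjusted p = 0.0159, and 0.0640 to 0.203 for the others). Of 17 NF-κB subunits and regulators 3 fell, the kinase complex genes Chuk and Ikbkg and the inhibitor gene Tnip1, with log2 fold changes from -0.62 to -0.56. The median log2 fold change of all listed genes was -0.50, so these falls are near the middle of the table. The 3 of 17 is also near the 20.6% of all inferred tests that passed, though some of the 17 may not have been tested. With TMM scaling, which shifts the median of all log2 fold changes up by 0.362, none of the 3 passed (edgeR adjusted p from 0.188 to 0.292).

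Of 7 genes that control the decay of chemokine mRNA, only Khsrp was listed, and it rose by 0.56 on the log2 scale. Of 19 genes of the epithelial response to interleukin-17 and NF-κB, 1 rose and 1 fell. Beside both counts, 20.6% of all inferred tests passed. Lrg1, a secreted glycoprotein of inflammation, had 78.2 and 38.6 normalized counts in WT, against 671.8 and 893.3 in Lats1/2iΔLgr5, high in both libraries as Cxcl5 was. Ptgs2, which encodes the inducible cyclooxygenase COX-2, fell from 446.7 and 998.1 to 219.1 and 364.2 (edgeR adjusted p = 0.112 with TMM scaling).

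**Figure D5:**
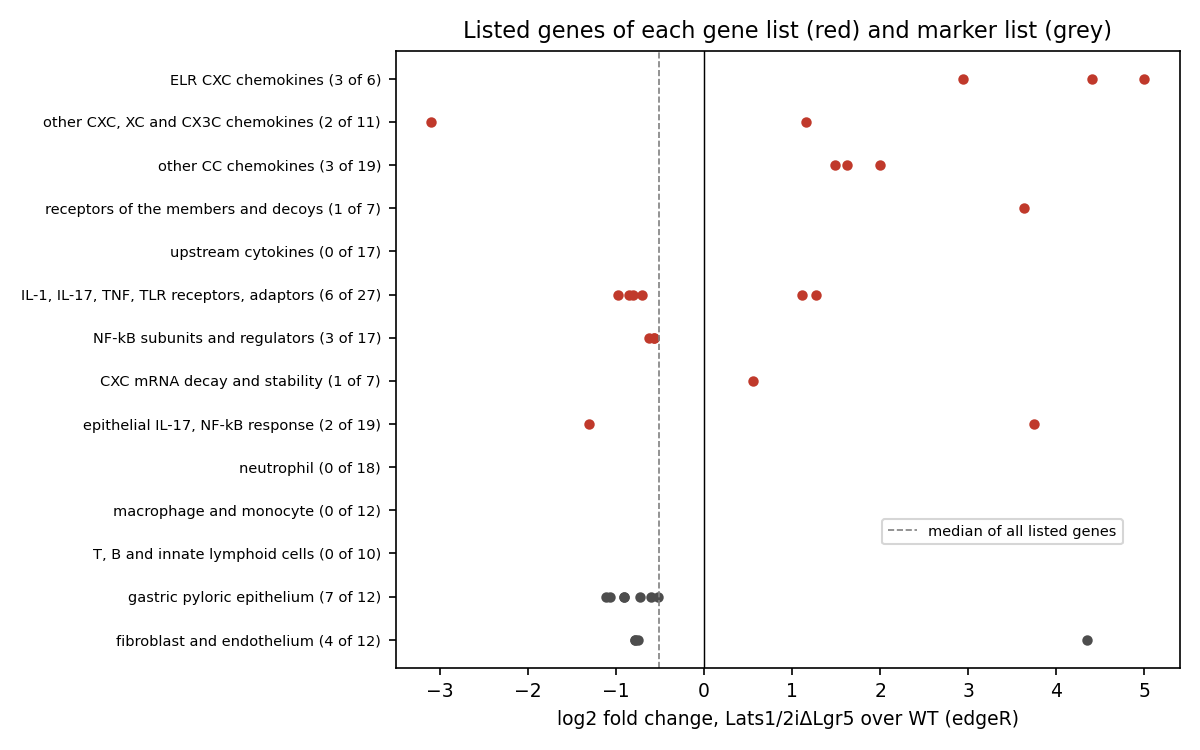
Log2 fold changes (edgeR, Lats1/2iΔLgr5 over WT) of the genes in each gene list (red) and cell type marker list (grey) that have a row in the table, with the number listed of the list's size on the axis; the dashed line is the median of all listed genes (-0.50). The ELR CXC row holds only members, from 2.94 to 5.0. NF-κB regulators lie from -0.62 to -0.56, and the neutrophil, macrophage and lymphoid rows are empty.

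The genes of most similar pattern were found by the Euclidean distance over the 4 libraries between centred log2(normalized count + 1) profiles, among 2701 genes. For Cxcl1 the closest was Sst, the somatostatin gene, at a distance of 0.513, with 21.4 and 38.6 normalized counts in WT and 71.5 and 336.9 in Lats1/2iΔLgr5 1 and 2. It was followed by Dio2, Gm12840, Lrp8 and Adam8, at distances up to 0.976. For Cxcl2 they were Gm12888, Cxcl1, the ghrelin gene Ghrl, the haptoglobin gene Hp and Sst, from 1.16 to 1.82. Cxcl1 was thus the second closest gene to Cxcl2, while Cxcl2 was 21st in the order for Cxcl1. Cxcl5 was 24th in the order for Cxcl2, and Cxcl2 was 23rd in that for Cxcl5. The distance reflects the size of the differences between libraries as well as their shape.

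For Cxcl5 the closest genes included the immunoglobulin segment Igkv3-2, Gm9625, Gm8730 and Lemd1, at distances of 1.06 to 1.80. Lemd1 had 18.9 and 19.8 normalized counts in WT, against 259.9 and 142.2 in Lats1/2iΔLgr5 1 and 2. Ccl20 had the nearest match of the 4 members, Kdm2b, a histone demethylase gene, at a distance of 0.124. Kdm2b had 225.9 and 234.9 normalized counts in WT, against 1202 and 421.3 in Lats1/2iΔLgr5 1 and 2. Mycl, Hspa4l, Arl4c and Slc39a10 followed at 0.448 to 0.529, all higher in Lats1/2iΔLgr5 1 than in Lats1/2iΔLgr5 2. None of the other 3 chemokines was near Ccl20 in this order, where they ranked 2369 to 2634. These rankings describe 4 libraries and share their depth and scaling.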

How the data were processed

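RNA was measured in 4 libraries, 2 per genotype, from 5 to 7 sections of pylorus each. Poly(A) RNA went into strand-marked libraries read from both ends at 75 bp, per the labels' protocols. TopHat2 2.1.1 was used with HTSeq, DESeq2 and GRCm38, per the submitters' processing notes, with settings not given in the sources used here. In the deposited table are raw counts per gene. Per the file headers, it also holds the authors' base mean (a signal), log2 fold change with its standard error, Wald statistic (a score), p-value and adjusted p-value. Its largest adjusted p is 0.05, and genes without a row were not analysed here.

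The number of genes tested (13141, quartiles 13130 and 13153) was inferred from p and adjusted p. Size factors recovered from the base means were 0.792, 0.907, 1.10 and 1.28 for WT 1, WT 2, Lats1/2iΔLgr5 1 and 2; rebuilt base means of 100 or more deviated by at most 0.00464%. Fold changes come from edgeR 4.0.16 (quasi-likelihood, no low-count filter, Benjamini-Hochberg at 0.05) over all 2701 rows, tested on simulated data; SE is the fold change over the root of F. Symbols are from GENCODE M21, which matched 2698 IDs; 1 was added to printed starts. Alternatives were TMM and DESeq2 1.42.0 size factors, filterByExpr, the DESeq2 test, adjustment over the inferred tests, the replicate number as a block, and each library left out. Intervals cover counting error only.

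The members, gene lists and motifs were chosen with earlier results of these data known. Named are the members; every listed gene of a list, or the 5 with the smallest deposited adjusted p; the 5 nearest patterns per member; and listed genes within 1 Mb. Ly96, Krt8, Muc5ac and Ilf2 fall outside this rule and were named after their values were seen. One gene of similar pattern is not reported here.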

Additional observations from a re-analysis of the deposited data

How the results depend on the processing

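Each member was higher in both Lats1/2iΔLgr5 libraries than in either WT library, so leaving out a library could not change its direction. TMM and DESeq2 size factors only moved the members' log2 fold changes up. All 4 chemokines thus kept their direction in each of 40 alternative results, which does not test the rise. Of these results, 31 stayed on the same side of 0.05. The other 9 lost the call. They were the 4 with adjustment over the inferred number of tests, where the log2 fold changes stayed at 5.0 for Cxcl5, 4.41 for Cxcl2, 2.94 for Cxcl1 and 1.75 for Ccl20, and 5 with a Lats1/2iΔLgr5 library left out. Leaving out 1 library gave 4.50 to 5.85 for Cxcl5, 2.61 to 6.19 for Cxcl2, 1.57 to 3.85 for Cxcl1 and 0.87 to 2.30 for Ccl20. Without Lats1/2iΔLgr5 replicate 2 no member passed, Cxcl5 included (log2 fold change 5.24, edgeR adjusted p = 0.0702), and only 5 listed genes of any kind did. The count of listed genes called was 2699; it was 1648 with TMM scaling, 1590 with DESeq2 size factors from the listed genes, 4 over the inferred number of tests, and 5 to 2454 with 1 library left out. The share of calls that were higher was 42.9%, and 70.2% and 72.8% with TMM and DESeq2 size factors, which shift the median by 0.362 and 0.407. No sign flipped among 32 list and marker genes, but 15 of 19 lower ones lost the call with TMM; Ccl11, higher, missed it in both (edgeR adjusted p = 0.0546 and 0.0567). The cause was not tested.

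With the replicate number as a block, 2537 listed genes were called and all 4 members passed, with log2 fold changes of 4.98, 4.44, 2.84 and 1.59 for Cxcl5, Cxcl2, Cxcl1 and Ccl20. The labels tie no numbers together, and over all listed genes the deviations of same-numbered libraries were weakly opposed (r = -0.162 across genes). Cxcl1 was higher in replicate 2 of both groups. So was Cxcl2, but on too few WT reads to show a difference within WT. Crossed numbers, an alternative added after seeing the data, gave 2661 calls. In WT, depth limits Cxcl2 and Cxcl5, with at most 7 reads per library.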
